A study of Homo sapiens with 4 samples.

Results

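Semaphorins, plexins and neuropilins are the ligands and receptors of 1 guidance system, and their genes were followed here in a comparison of open chromatin in A375 cells, an established human melanoma line. The set held every protein-coding gene of the RefSeq GRCh38 annotation whose symbol begins SEMA3 to SEMA7 or PLXNA to PLXND, plus NRP1 and NRP2. This gave 31 genes, of which 20 encode semaphorins, 9 plexins and 2 neuropilins. Regions of the authors' deposited table that overlapped a gene, or the 10 kb on either side of it, were taken as its regions. There were 316 such regions among 125986 in all, each belonging to 1 gene of the set, and 30 of the 31 genes had at least 1. SEMA6B was the gene with 0 regions.

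The assay was ATAC-seq: a transposase, Tn5, inserts sequencing adapters where DNA is open. Both groups were A375 cells grown in DMEM with 10% FBS and kept for 48 h with 1 mM octanoate, which is a medium-chain fatty acid, or with isopropanol as vehicle. Each group had 2 libraries, 4 in all, and the labels do not say whether these came from separate cultures, so p-values measure the spread between libraries, which may be technical. The table holds 0 columns for a single library: each region has a mean normalized read count over the 4 libraries, called signal here, and a log2 fold change of octanoate over vehicle with its standard error (SE) and p-value. All are the authors' values, so no spread between replicates could be computed. The labels state an average of 40000000 to 50000000 paired-end reads per library, and the depth of each library is otherwise unknown.

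In the developing embryo semaphorins steer growing axons and migrating neural crest cells, the lineage from which melanocytes arise. The SEMA3 proteins are secreted and mostly bind neuropilins, which lack a signalling domain of their own and hand the signal to plexins. SEMA4, SEMA5 and SEMA6 proteins span the membrane, SEMA7A is held by a lipid anchor, and these classes bind plexins or other receptors without a neuropilin. Inside the cell plexins act on small GTPases, loosen adhesion and reshape the actin skeleton. In pigment cells and melanoma the family is known for effects on adhesion, migration and blood vessel growth.

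The cell type was checked by regions within 1 kb of a gene's start, or of either gene end where no start was listed. Of 8 melanocytic marker genes 5 had such a region, among them MITF, the master regulator of the lineage, with a signal of 168 by the authors' deposited table. PMEL (34.2), DCT (30.0), S100B (27.7) and SOX10 (15.7) had lower signals. TYR, MLANA and TYRP1 had none. The same held for all 4 keratinocyte markers, whereas 4 of 4 fibroblast markers and 1 of 4 leukocyte markers (CD3E) had one. Signals were 10.8 to 40.7 at the fibroblast markers and 70.1 at CD3E, so the marker signals did not set these cell types apart. In a bulk culture, more cells with an open region and more cuts per cell cannot be told apart.

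The authors adjusted p-values over the 11185 regions with a signal of at least 63.8. These are called tested regions, and by DESeq2 with Benjamini-Hochberg adjustment 114 of them (1.02%) passed an adjusted p of 0.05, all higher after octanoate. Fold changes as a whole lay above 0 in the authors' deposited table: the median was 0.19 (log2) for tested and 0.23 for all nuclear regions. Values for the guidance genes are therefore set against these medians.

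Few regions of the family were strong enough to be tested. Only 27 of the 316 regions, in 16 of the 31 genes, reached the tested level, a share of 8.54% against 8.88% of all nuclear regions. Of the 27, the authors' deposited table gave 1 an adjusted p under 0.05 (DESeq2), to be read against the 1.02% of all tested regions. That region lay in PLXNA4 and rose with octanoate. At an unadjusted p under 0.05 the count in the authors' deposited table was 2 of 27 higher and 0 lower, where 14.8% of all tested regions were higher and 0.107% lower. Over all 316 regions it was 7 higher and 0 lower, where 3.58% of all nuclear regions were higher and 0.179% lower. Neither of these unadjusted counts stood above the share of the whole table.

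As a list, the family had values close to those of the whole table. The median log2 fold change of the 316 regions was 0.22 in the authors' deposited table, with quartiles of -0.09 and 0.42, against 0.23 (-0.04 and 0.52) for all nuclear regions. Relative to that genome-wide median it was -0.012, so its direction turned with the centring. Above 0 lay 216 of the 316 regions (68.4%) by the authors' deposited table, against 72.1% of all nuclear regions. Of these fold changes 78.8% came within 1 SE of the genome-wide median, where 81.6% of all nuclear regions did. For most regions of the family the distance from that median was thus smaller than the authors' own SE.

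**Figure D1:**
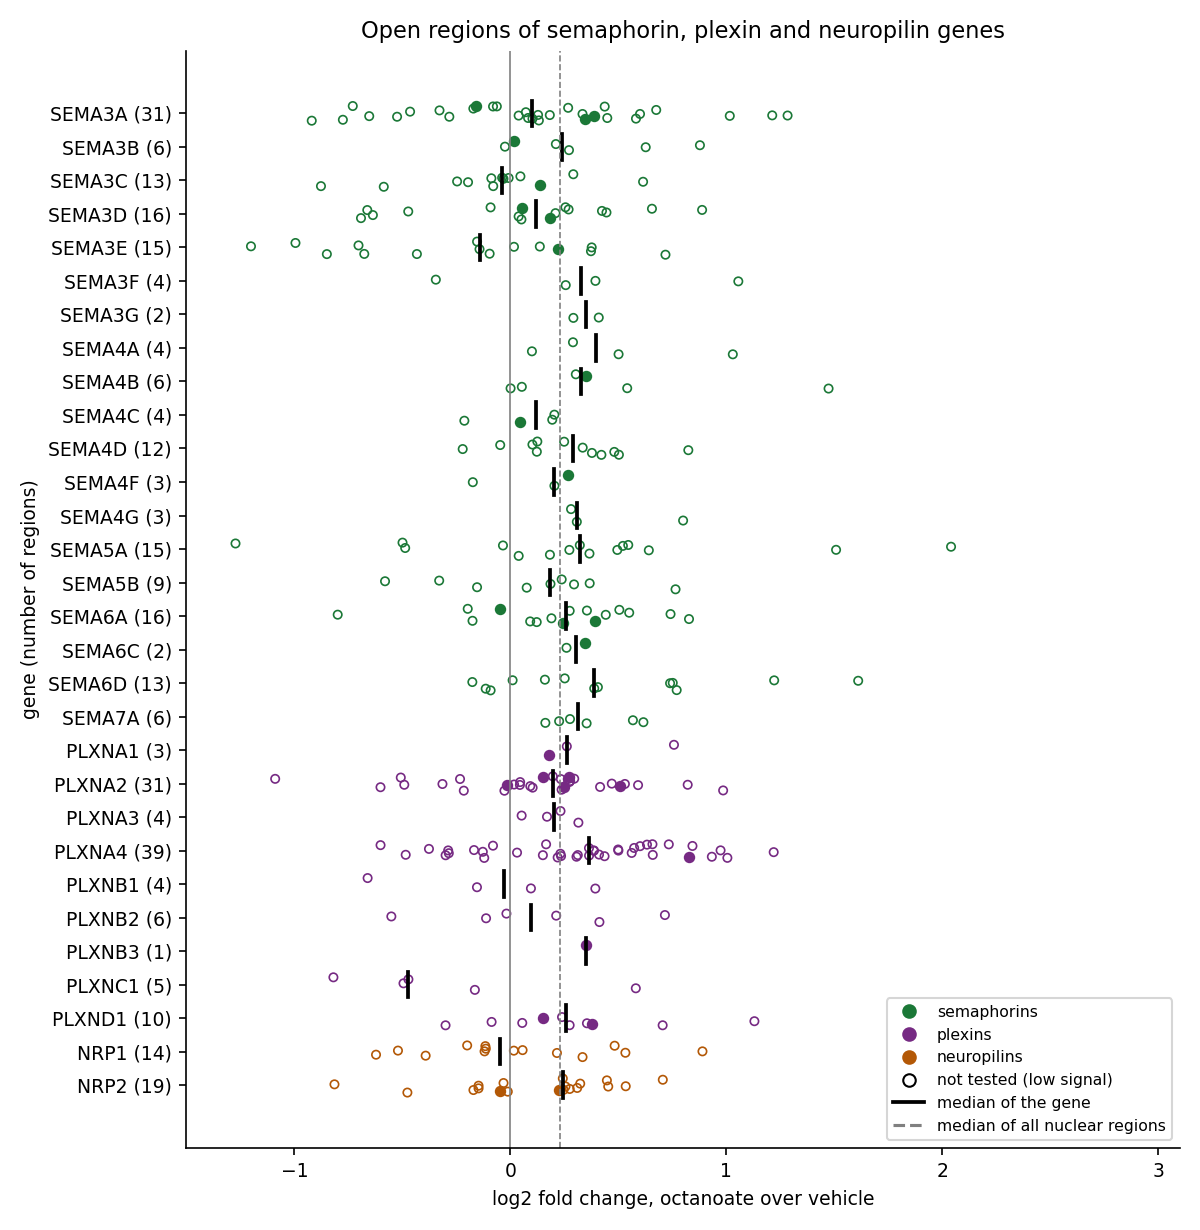
Log2 fold change of octanoate over vehicle (horizontal axis) for each of the 316 regions, by gene (vertical axis, number of regions in brackets). Filled points are the 27 tested regions, open points were not tested, black bars are medians per gene, and the dashed line is the median of all nuclear regions, 0.23; the bars of SEMA3E, SEMA3C, NRP1, PLXNB1 and PLXNC1 lie below 0.

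**Figure D2:**
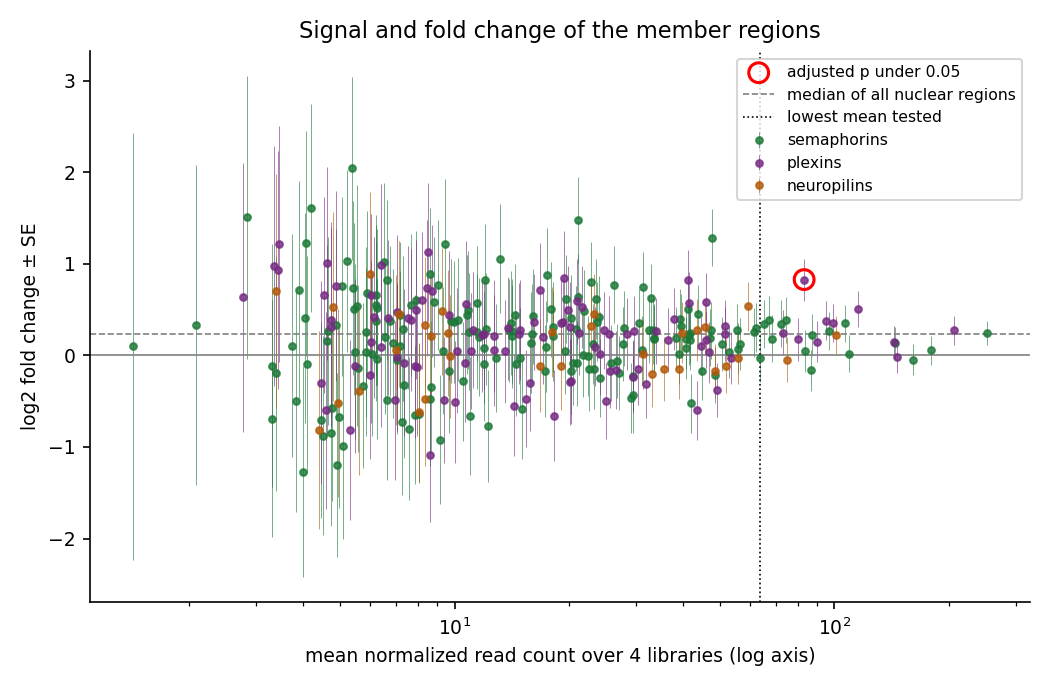
Signal (mean normalized read count, log axis) against log2 fold change with its SE (bars) for the 316 regions. SEs shrink as signal grows, and the circled PLXNA4 region, at a signal of 83.2 and a log2 fold change of 0.83, is the 1 region with an adjusted p under 0.05.

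Regions at gene starts, where promoters lie, are described first. RefSeq promoter sequences (GRCh38.p14) were listed for 27 of the 31 genes, with 48 starts in all; SEMA3A, SEMA6A, SEMA6B and NRP1 had no entry. For those genes either end of the gene was used in place of a start. Of the 27 genes with a listed start 24 had a region within 1 kb of one, and SEMA4A, SEMA4D and PLXNB2 did not. The listed starts of SEMA4D and PLXNB2 lie inside their RefSeq spans, so other starts may exist. Regions covered the upstream ends of both spans, chr9:89497243-89498534 (signal 50.7) and chr22:50307241-50307797 (signal 14.4). The nearest region to the listed SEMA4D start was 1.59 kb away, and SEMA3A had 0 regions within 1 kb of either end.

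The 250 bases before the start are shown for 4 promoters: PLXNA2 and SEMA3D, which had the strongest start regions among genes with a listed start, and SEMA3B and PLXNB3, whose start regions had the next smallest p-values after PLXNA2. Each is written 5′ to 3′ on the gene's own strand. Capitals mark matches, on either strand, to the motif GGGCGG or to CCAAT. The other motifs searched, named with their shares after the sequences, had no match in these windows.
PLXNA2 (chr1:208244385-208244634, minus strand): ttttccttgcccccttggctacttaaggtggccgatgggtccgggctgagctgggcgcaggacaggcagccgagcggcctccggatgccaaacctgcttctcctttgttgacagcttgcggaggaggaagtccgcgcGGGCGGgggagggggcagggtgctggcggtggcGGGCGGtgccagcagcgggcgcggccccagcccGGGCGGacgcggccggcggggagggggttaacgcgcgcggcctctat
SEMA3D (chr7:85187057-85187306, minus strand): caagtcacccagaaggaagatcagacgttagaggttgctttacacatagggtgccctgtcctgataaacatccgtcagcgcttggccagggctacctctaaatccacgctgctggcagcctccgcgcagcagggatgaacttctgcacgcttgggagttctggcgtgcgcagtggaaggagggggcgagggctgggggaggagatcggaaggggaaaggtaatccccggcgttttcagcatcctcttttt
SEMA3B (chr3:50268911-50269160, plus strand, 1 of 5 listed starts): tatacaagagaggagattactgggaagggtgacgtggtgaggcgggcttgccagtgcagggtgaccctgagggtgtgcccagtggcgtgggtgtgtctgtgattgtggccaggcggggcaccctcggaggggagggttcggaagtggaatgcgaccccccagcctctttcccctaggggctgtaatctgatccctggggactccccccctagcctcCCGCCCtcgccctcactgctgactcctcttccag
PLXNB3 (chrX:153763999-153764248, plus strand): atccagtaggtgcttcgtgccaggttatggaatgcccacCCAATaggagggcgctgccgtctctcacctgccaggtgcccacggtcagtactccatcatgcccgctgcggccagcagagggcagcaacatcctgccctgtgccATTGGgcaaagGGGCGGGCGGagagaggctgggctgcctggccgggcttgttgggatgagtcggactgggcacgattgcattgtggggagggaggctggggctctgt

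These promoters differed in base content. PLXNA2 had 72.4% G or C, 27 CG pairs and 3 matches to GGGCGG, the GC box. PLXNB3 had 64.4% G or C, 2 overlapping GC boxes and 2 matches to CCAAT. SEMA3B had 1 GC box, and its region here, chr3:50268810-50269361, is a weaker one than at its first start: signal 32.9, log2 fold change 0.63 (SE 0.37, unadjusted p 0.0886), in the authors' deposited table. SEMA3D, at 57.6% G or C, had no match to any of the 6 motifs in this window. Over the 48 listed starts of the family, 62.5% held GGGCGG, against 53.7% of 22197 starts of protein-coding genes with windows of the same length. CCAAT was found in 22.9% against 32.7%, and TATAAA in 2.08% against 9.01%. CACGTG, a sequence to which MITF can bind, was found in 6.25% against 7.37%, the related TCATGTG in 2.08% against 1.996%, and TGANTCA, the AP-1 sequence, in 2.08% against 5.36%. The median content of G or C was 64.8% against 62.0%. A match is a description of letters, not of binding.

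No start region of the family passed a threshold. The strongest region at each start was taken for 26 genes, 11 of them tested, and 0 had an unadjusted p under 0.05 in the authors' deposited table. Their log2 fold changes there ran from -0.38 (PLXNA4) to 0.41 (SEMA3G), with SEs of 0.14 to 0.49, and 21 of the 26 lay above 0. Every 95% interval (fold change ± 1.96 SE) included 0, and 25 of the 26 included the genome-wide median. PLXNA4 was the exception. Counted by 2 SEs, 97.0% of all start regions of the family lay that near to the genome-wide median. Of all nuclear regions at protein-coding starts 98.9% did. Among start regions below the tested level, the authors' deposited table gave 0.39 for SEMA3F, 0.30 for SEMA4B, 0.25 for SEMA6D, 0.27 for SEMA5A and 0.16 for SEMA7A. It gave 0.08 for SEMA5B, 0.02 for SEMA3E and -0.15 for PLXNB1. All 33 regions within 1 kb of a start had a median of 0.15 by the authors' deposited table, close to the 0.14 of the 12033 regions at starts of all protein-coding genes. Away from starts the 283 regions of the family had a median of 0.23 in that deposited table, and all 113952 nuclear regions away from starts 0.25. The lower values at starts are thus seen in the whole table. Among tested regions the family had medians of 0.22 at starts and 0.23 away from them, against 0.16 and 0.23 for all tested nuclear regions. The family was sorted by each gene's own start or ends, the whole table by any listed protein-coding start.

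**Figure D3:**
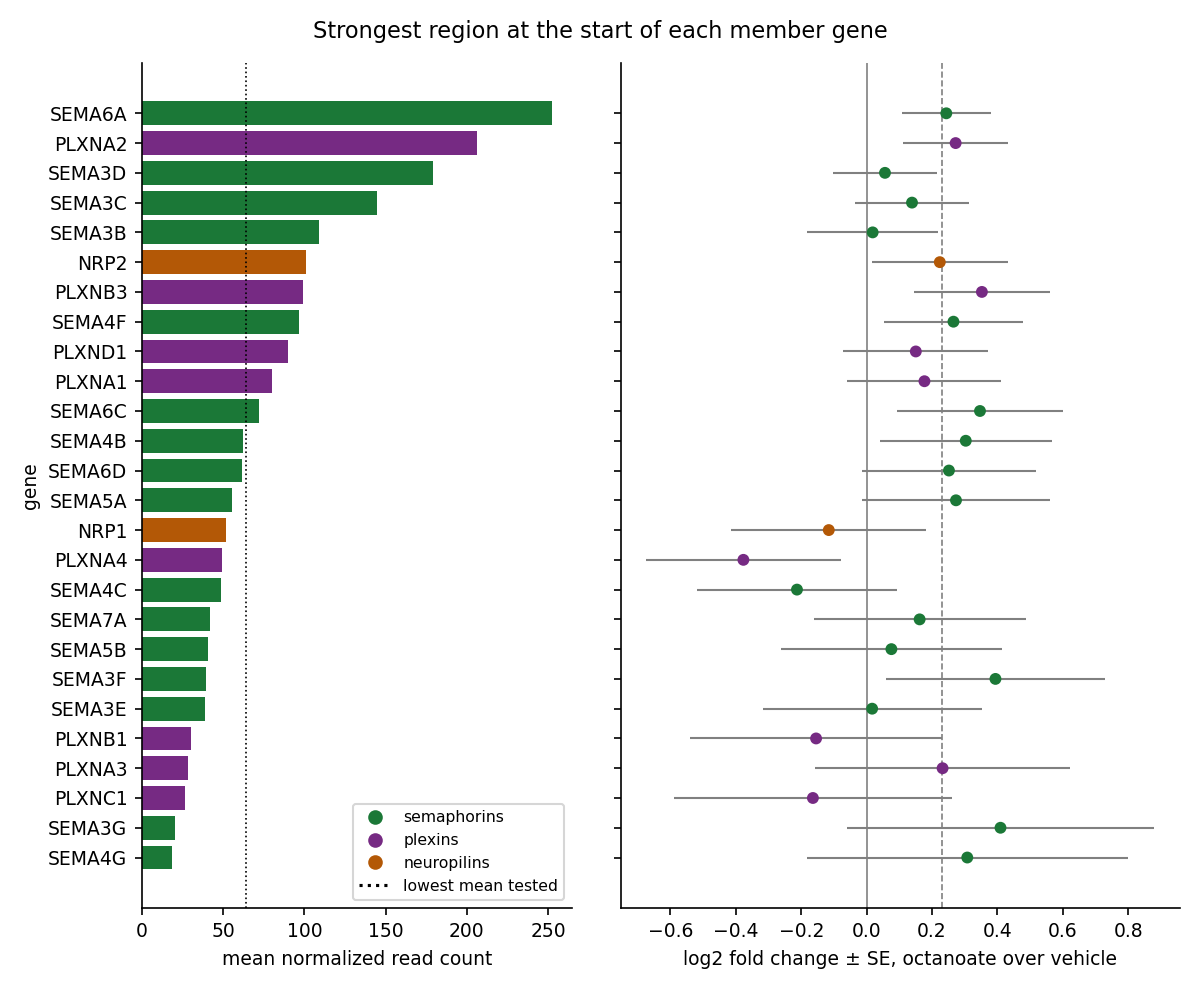
Left, signal (mean normalized read count) of the strongest region at the start of 26 genes, ordered by signal, with the lowest tested level (63.8) dotted; right, its log2 fold change with SE, solid line at 0 and dashed line at the genome-wide median of 0.23. For SEMA6A and NRP1, which have no listed start, an end of the gene was used. Signal runs from 18.2 (SEMA4G) to 252 (SEMA6A), and the lowest fold change is that of PLXNA4, at -0.38.

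The ligands are described by class, beginning with the secreted SEMA3 proteins. SEMA3A, SEMA3C, SEMA3D and SEMA3E lie within 4.51 Mb of chromosome 7, and SEMA3B, SEMA3F and SEMA3G on chromosome 3. The strongest SEMA3 start regions in the authors' deposited table were those of SEMA3D (chr7:85184962-85187455, signal 179, log2 fold change 0.06, SE 0.16) and SEMA3C (chr7:80918665-80920335, signal 144, log2 fold change 0.14, SE 0.17). SEMA3B, often described as a brake on tumour growth, followed with a signal of 109 and a log2 fold change of 0.02 (SE 0.20) at chr3:50259813-50261104 in the authors' deposited table. All 3 fold changes lay within 1 SE of 0, and their 95% intervals reached from -0.37 (SEMA3B) to 0.48 (SEMA3C). Per kb of region SEMA3C (86.4), SEMA3B (84.5) and SEMA3D (71.8) were alike in signal.

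The 4 SEMA3 genes of chromosome 7 had a low median, although not among their tested regions. Their 75 regions had a median log2 fold change of 0.04 by the authors' deposited table, with 40 above 0. The 7 tested among them had a median of 0.18, with 6 above 0, against 0.19 for all tested regions. The other 241 regions of the family had 0.25, with 176 above 0. By gene the medians in the authors' deposited table were -0.14 for SEMA3E (15 regions, 6 above 0), -0.04 for SEMA3C (13 regions, 4 above 0), 0.10 for SEMA3A (31 regions, 19 above 0) and 0.12 for SEMA3D (16 regions, 11 above 0). SEMA3E is a ligand of PLXND1 that repels blood vessels, and SEMA3A is the founding repellent of axons. At an unadjusted p under 0.05, 0 of the 75 regions were lower and 1 was higher. Of all nuclear regions 0.179% were lower and 3.58% higher, so a count of 0 lower is near the share of the whole table.

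The low values were not limited to the genes themselves. The stretch from SEMA3C to SEMA3D (chr7:80742538-85250243, 4.51 Mb) held 188 regions, and the 113 outside the windows of the 4 genes had a median of 0.01 by the authors' deposited table. Here the 7 tested regions were low as well, with a median of 0.0054 and 4 above 0, and the 14 tested regions of the whole stretch had 0.07, against 0.19 for all tested regions. Chromosome 7 as a whole had 0.24 over 7307 regions in the same deposited table. The 3 SEMA3 genes of chromosome 3 had a median of 0.28 over 12 regions there, 10 of them above 0. SEMA3B had 6 regions (0.24), SEMA3F 4 (0.33) and SEMA3G 2 (0.35). Signal was lower in the stretch as well, at a median of 10.8 against 12.0 for chromosome 7, with a median SE of 0.65 against 0.61. The part of signal and SE in these low fold changes was not tested.

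**Figure D4:**
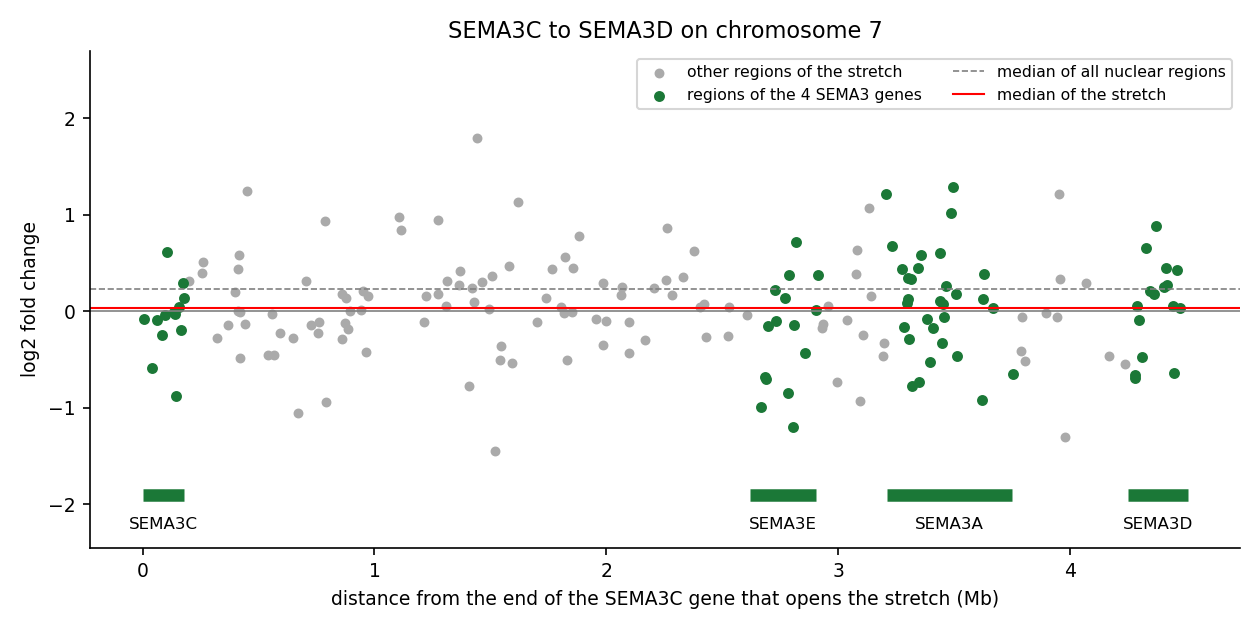
Log2 fold change of each of the 188 regions between SEMA3C and SEMA3D, by distance along chromosome 7 in Mb from the outer end of SEMA3C; green points belong to the 4 genes (bars below) and grey points to the rest. The red line, the median of the stretch (0.03), lies below the dashed genome-wide median of 0.23.

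Within SEMA3A, 1 region stood apart from this low background. At chr7:84237413-84238127, 255 kb from the nearer end of the gene, the authors' deposited table gave a log2 fold change of 1.28 (SE 0.31, unadjusted p 3.47e-05), the smallest p of the family. Its signal of 47.7 was below the tested level, and its adjusted p is listed there as 1, as for all regions that were not tested. Adjusted over all regions of the table, its p was 0.096, which missed the threshold (Benjamini-Hochberg on the DESeq2 p-values). After the median of all nuclear regions was subtracted, an alternative added after its values were seen, the log2 fold change was 1.05 and the adjusted p 1. Its neighbours in SEMA3A, 5.81 kb and 13.3 kb away, had log2 fold changes of 1.02 (SE 0.87) and 0.18 (SE 0.36) in the authors' deposited table. The 3 tested SEMA3A regions were lower, from -0.16 to 0.39, the highest being chr7:84371852-84372819 (SE 0.25, adjusted p 0.463, DESeq2) in that deposited table of the authors. None of these 3 reached the value of the weaker site.

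SEMA4 genes encode membrane ligands active in immunity, vessels and tumour invasion. Their 32 regions had a median log2 fold change of 0.27 by the authors' deposited table, and 28 lay above 0. SEMA4B had 6 regions (median 0.33), SEMA4C 4 (0.12) and SEMA4F 3 (0.20), as the authors deposited them. SEMA4D, whose receptor PLXNB1 couples to MET, had 12 regions with a median of 0.29, none of them tested, in the authors' deposited table. SEMA4F had the start region with the most signal per kb of the family (104), with a log2 fold change of 0.27 (SE 0.21) in the authors' deposited table. The SEMA4C start region lay on the other side of 0 at -0.21 (SE 0.31) in that deposited table. SEMA4A had 4 regions, all outside its span (median 0.40, all above 0, SEs of 0.46 or more), and SEMA4G had 3 (0.31), as deposited by the authors.

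SEMA4B held the largest fold change among regions of the family with an unadjusted p under 0.01. This region, chr15:90211763-90212247, had a log2 fold change of 1.47 (SE 0.47, unadjusted p 0.00171) in the authors' deposited table, at a signal of only 21.1. It was not tested, and its p adjusted over all regions was 0.526 (Benjamini-Hochberg on the DESeq2 p-values). The strong region assigned to SEMA4B by the 10 kb rule, chr15:90233167-90234511, lies within 1 kb of starts of CIB1 and GDPGP1 and had a log2 fold change of 0.35 (SE 0.20, adjusted p 0.413, DESeq2) in the authors' deposited table. In all, 8 regions of the family lay at the start of another protein-coding gene and not at that of their own.

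SEMA5A and SEMA5B, membrane ligands with thrombospondin repeats, had 24 regions, 0 of them tested, with a median of 0.26 by the authors' deposited table. SEMA5A gave both extremes of the family, 2.04 (SE 1.00, unadjusted p 0.0409) at chr5:9099682-9099916 and -1.27 at another site, in the authors' deposited table. By gene the median was 0.32 over 15 regions for SEMA5A and 0.19 over 9 for SEMA5B. The signal at the first site was 5.38, a low level at which SEs are wide. Neither value passed a threshold after adjustment over all regions.

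SEMA6 genes encode membrane ligands of the PLXNA receptors. SEMA6A had the strongest region of the whole family at one end of the gene, chr5:116572520-116576756, which is 4237 bp wide with a signal of 252. Its log2 fold change was 0.24 (SE 0.14, adjusted p 0.387, DESeq2) in the authors' deposited table. A second broad SEMA6A region, 9.26 kb inside the other end, chr5:116452812-116455435, had a signal of 161 and a log2 fold change of -0.05 (SE 0.17) in that deposited table. Neither passed the threshold. Between them chr5:116491780-116493071 had 0.39 (SE 0.25, adjusted p 0.474, DESeq2), and the 16 SEMA6A regions had a median of 0.26, by the authors' deposited table. SEMA6D had the highest median of the 13 genes of the family with at least 10 regions, 0.39 over 13 regions in the authors' deposited table, 0 of them tested. SEMA6C had 2 regions, and its tested start region had 0.35 (SE 0.25) in the authors' deposited table.

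SEMA7A, the lipid-anchored ligand of PLXNC1 and of integrins, had 6 regions. All 6 lay above 0 in the authors' deposited table, from 0.16 to 0.62 with a median of 0.31, and 0 were tested. Its receptor PLXNC1, which has been studied as a restraint on melanocyte and melanoma adhesion, had mostly values below 0. In the authors' deposited table the 5 PLXNC1 regions had log2 fold changes of -0.49, -0.82, 0.58, -0.16 and -0.47, in order along the chromosome, with SEs of 0.32 to 0.98. That is 4 of 5 below 0, with a median of -0.47, though none had an unadjusted p under 0.05. The smallest p of PLXNC1, 0.0678, belonged to the 1 region above 0 in the authors' deposited table.

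PLXNA receptors carry the signals of SEMA3 proteins together with neuropilins, and those of SEMA6 directly. PLXNA4 had 39 regions, the most of any gene in the family, and a median log2 fold change of 0.36 by the authors' deposited table; 29 lay above 0 and 25 above the genome-wide median. The region that passed the threshold was chr7:132145048-132146013, within the gene and 430 kb from its listed start. The RefSeq span of PLXNA4 reaches a further 72.2 kb upstream of that start, so other starts of the gene may exist. It rose by 0.83 on the log2 scale (SE 0.23, 1.77-fold, adjusted p 0.0359, DESeq2) in the authors' deposited table, at a signal of 83.2. The call rested on the authors' choice of tested regions and on their scale. The p was 0.291 when adjusted over all regions of the table, and 0.657 after the tested median was subtracted, which left a rise of 0.64 (Benjamini-Hochberg on DESeq2 estimates).

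The sites nearest to it were weak. These neighbours, 5.93 kb and 16.1 kb away, had signals of 6.68 and 4.58 and log2 fold changes of 0.41 (SE 0.84) and -0.60 (SE 1.08) in the authors' deposited table. The other 38 PLXNA4 regions were all below the tested level. At the listed PLXNA4 start, chr7:132575648-132577708, the log2 fold change was -0.38 (SE 0.30, unadjusted p 0.206) in the authors' deposited table. Its 95% interval, -0.96 to 0.21, included 0 but not the genome-wide median of 0.23, the only such case among the 26 strongest start regions.

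PLXNA2, a receptor for SEMA3 and SEMA6 ligands, had the most tested regions of the family, 5 of 31. Its start region, chr1:208243093-208245591, had a signal of 206 and a log2 fold change of 0.27 (SE 0.16, adjusted p 0.414, DESeq2) in the authors' deposited table. Inside the gene, chr1:208184145-208185207 had 0.51 (SE 0.20, unadjusted p 0.00988, adjusted p 0.167, DESeq2) in the authors' deposited table, the second smallest p among tested regions of the family. A weaker site that was not tested, chr1:208203128-208203755, had 0.82 (SE 0.33, unadjusted p 0.0139, signal 41.2) there. The strong inner sites chr1:208219363-208220405 (signal 144) and chr1:208107458-208108814 (signal 146) had 0.15 (SE 0.17) and -0.02 (SE 0.18) in that deposited table. These 3 tested inner sites had 108 to 138 of signal per kb, against 82.5 at the start and 54.8 at the fourth, chr1:208029214-208030552, whose log2 fold change was 0.25 (SE 0.25) in that deposited table. The median of all PLXNA2 regions was 0.20 in the authors' deposited table. PLXNA1 had 3 regions (median 0.26) and PLXNA3 had 4 (median 0.20), all above 0 as the authors deposited them.

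**Figure D5:**
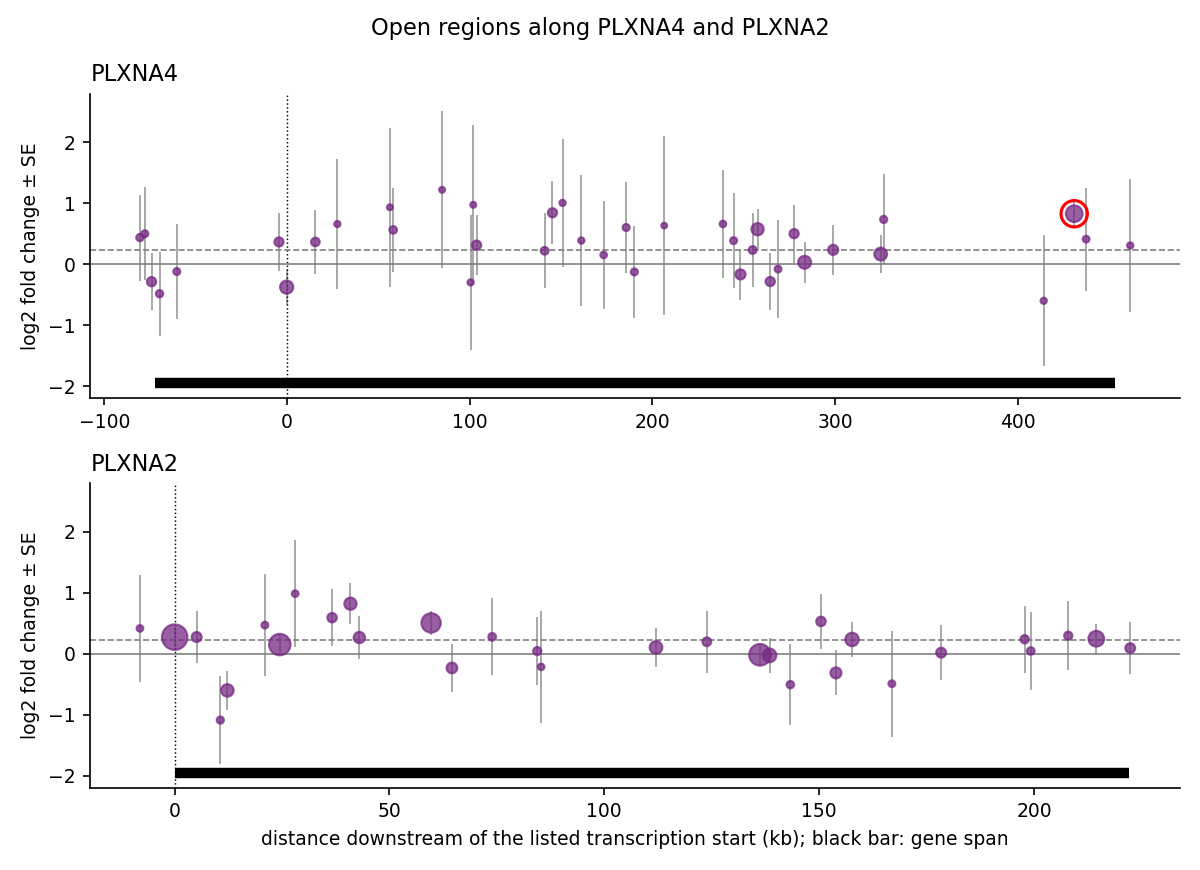
Log2 fold change with SE of each region along PLXNA4 (top, 39 regions) and PLXNA2 (bottom, 31 regions), by distance in kb downstream of the listed start (dotted line); point area grows with signal and the black bar is the gene. The circled PLXNA4 region, 430 kb from the start, is the 1 with an adjusted p under 0.05, while the largest points of PLXNA2 lie between -0.02 and 0.51.

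PLXNB receptors bind SEMA4 ligands. PLXNB3 had 1 region, at its start (chrX:153763936-153766776), with a log2 fold change of 0.35 (SE 0.21, adjusted p 0.422, DESeq2) in the authors' deposited table. PLXNB1 had 4 regions (median -0.03) and PLXNB2 had 6 (median 0.10), with 2 and 3 above 0 and 0 tested, in the authors' deposited table. PLXND1, the receptor of SEMA3E in vessels, had 10 regions with a median of 0.26 in that deposited table. Its start region had 0.15 (SE 0.22), and a region 5.05 kb from the start, chr3:129611730-129613284, had 0.38 (SE 0.21, unadjusted p 0.0787) in the authors' deposited table. None of these differed from the genome-wide median by more than 2 SEs, and 98.5% of all nuclear regions lay within 2 SEs of it.

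The neuropilins had a median of 0.06 over 33 regions within 10 kb, below the other classes, but 0.24 with windows of 50 kb, where semaphorins had 0.18 and plexins 0.24, by the authors' deposited table. Their place among the classes thus turned with the window. NRP1, co-receptor for SEMA3A and for VEGF, had 14 regions with a median of -0.05, 7 above 0 and 0 tested, in the authors' deposited table. Its region at the gene end, chr10:33334080-33336352, had a signal of 51.9 and a log2 fold change of -0.12 (SE 0.30) in that deposited table. NRP2, which prefers SEMA3F, had 19 regions with a median of 0.24 by the authors' deposited table. The NRP2 start region, chr2:205681768-205683735, had 0.22 (SE 0.21), and a site 15.9 kb away, chr2:205698441-205699436, had 0.53 (SE 0.27, unadjusted p 0.0487), in the authors' deposited table. The NRP2 median thus lay near the genome-wide one and the NRP1 median lower, a difference that was not tested.

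By class, the medians in the authors' deposited table were 0.20 for the 180 semaphorin regions, 0.23 for the 103 plexin regions and 0.06 for the 33 neuropilin regions (0.02 with windows of 0 kb). Relative to the genome-wide median these were -0.025, 0.0056 and -0.17, so the semaphorin and neuropilin medians lie above 0 only as deposited. The spread between genes was set beside that of all protein-coding genes with at least 10 regions, 1836 genes, whose medians had quartiles of 0.11 and 0.34. Of the 13 guidance genes with as many regions, 4 lay below the lower quartile (SEMA3E, NRP1, SEMA3C and SEMA3A) and 2 above the upper (SEMA6D and PLXNA4). SEMA3E and NRP1 were also under the 5th percentile of -0.04. Genes of known ligand and receptor pairs can be set side by side: SEMA3E had -0.14 and PLXND1 0.26, SEMA4D 0.29 and PLXNB1 -0.03, SEMA3F 0.33 and NRP2 0.24, SEMA3A 0.10 and NRP1 -0.05, and SEMA7A 0.31 and PLXNC1 -0.47, as medians from the authors' deposited table.

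Other genes of semaphorin signalling were described from a list of 39: 11 further receptors and partners, 3 other ligands of neuropilins or MET, and 25 effectors in the cell. Their 254 regions had a median of 0.20 by the authors' deposited table. Of the 36 tested 0 had an adjusted p under 0.05 (DESeq2), and at an unadjusted p under 0.05 there were 2 higher and 0 lower, against 14.8% higher among all tested regions. These were a region at CDK5, a kinase that phosphorylates the collapsin response mediators downstream of SEMA3A (chr7:151057517-151061490, log2 fold change 0.33, SE 0.12, adjusted p 0.156, DESeq2), and one in RAP1A, a GTPase that plexins switch off (chr1:111564988-111565688, 0.58, SE 0.26, adjusted p 0.242, DESeq2), in the authors' deposited table. Over all 254 regions, 9 were higher and 0 lower at an unadjusted p under 0.05, where 3.58% of all nuclear regions were higher. Among them were 2 in NRCAM, an adhesion partner of NRP2, with log2 fold changes of 1.15 (SE 0.47) and 0.78 (SE 0.33) in the authors' deposited table. The other ligands VEGFA, PGF and HGF had 10 regions with a median of -0.04 there. By gene the medians were -0.12 for VEGFA, 0.13 for PGF and 0.16 for HGF, which lies in the chromosome 7 stretch.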

How the data were processed

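ATAC-seq libraries of A375 cells, 2 with vehicle and 2 with octanoate, were grouped by their titles. Per the submitters' processing notes, the tools were Trim Galore, cutadapt, FastQC, Bowtie2, Picard, MACS2, featureCounts, DESeq2 and bedtools 2.29.1, and the build hg38. Their settings, and whether reads were moved to the transposase cut site, are not given in the sources used here. How regions were merged and duplicates handled is likewise not given there.

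The authors deposited 1 table of their DESeq2 comparison. Its signal column is, per the file headers, a mean normalized read count. The deposited log2 fold change and its SE are for octanoate over vehicle. A further deposited column, a score, holds the Wald statistic; its two-sided normal p is the deposited p-value. Recomputing them gave differences of at most 2.31e-14. The deposited adjusted p-value equalled a Benjamini-Hochberg adjustment over the 11185 regions with a signal of at least 63.8, and was listed as 1 in the other 114801, treated here as not tested. Samples had no columns of their own, so no count test was made, and the precision is that of the authors' SEs: at the family's median SE, 0.55, a log2 fold change of 1.08 is needed for an unadjusted p of 0.05.

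Gene spans were those of RefSeq on GRCh38.p14, and starts and strands from the RefSeq promoter table. Coordinates are hg38, counted from 1. Exons, introns and UTRs were not used here. The members and gene lists were chosen with earlier results of these data known. Named regions were those past the threshold, the 10 tested regions with the smallest p, the strongest start region of each gene and the 5 strongest regions away from starts; those below the tested level were added after their values were seen. Genes with at least 10 regions were ranked by median. Of the wider list the 3 regions with the smallest p were to be named, of which 1 is not reported here. Just inside the 10 kb limit, at 9.61 kb, a PLXNB1 region had a log2 fold change of 0.39 (SE 0.34), and just outside, at 10.1 kb, one at SEMA3G had 0.11 (SE 0.40), in the authors' deposited table. Alternatives changed thresholds, adjustment, centring, window, gene weighting and filters. Computations used Python 3.11.15, pandas 2.3.3 and scipy 1.17.1, and the adjustment code was tested on simulated data.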

Additional observations from a re-analysis of the deposited data

How the results depend on the processing

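The count of 1 region past the adjusted p of the authors' deposited table stayed 1 at an adjusted p of 0.1 and with gene windows of 0 kb or 50 kb. It was 0 at an adjusted p of 0.01, 0 with Benjamini-Hochberg over all regions and 0 after centring on the tested median. At an unadjusted p it was 2 of the tested and 7 of all regions. For the wider list of 39 genes the count of 0 became 2 at an unadjusted p and was 0 otherwise. The cause was not tested.

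Centring on the median of all nuclear regions turned the medians of the family (-0.012), semaphorins (-0.025), neuropilins (-0.17), start regions (-0.079) and other regions (-0.0033), and left plexins at 0.0056; the constant subtracted, 0.23, accounts for this. The neuropilin median was -0.0076 in regions with a signal of at least the table's median and -0.049 without NRP2, the gene with more regions, which leaves NRP1 alone. The semaphorin median was 0.29 when each gene counted once; the cause was not tested. The neuropilin median of 0.06 was also 0.02 with windows of 0 kb, 0.24 with 50 kb, 0.10 as the median of both genes and 0.09 over the 2 tested regions. In 34 cases, these 4 included, a count stayed within 1.5 times its main value or a median within the 95% interval of the main median. That interval was taken from the ranked values of the regions. It treats neighbouring regions as independent and does not measure spread between libraries. For the 33 neuropilin regions it is wide, from -0.12 to 0.28, so that 0.02 and 0.24 both counted as unchanged.

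No paired analysis was possible because values of single libraries were not analysed here. Leaving out a replicate, other scalings and count tests were not run on that account. Signal limited the tests: 289 of 316 regions were below the tested level.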
